A study of Mus musculus with 18 samples.

Results

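The comparison described here is that of macrophages given IL-10 before LPS with macrophages given LPS alone. It rests on 6 of the 18 ATAC-seq libraries of the study, which were chosen by their labels (3 LPS + IL-10 and 3 LPS libraries), and it covers all peaks of the union set that could be tested. Bone marrow-derived macrophages (BMDMs) were grown in L929-conditioned medium from 3 Il10-/- mice, 12-week-old males on the C57BL/6J background, and each condition had 3 libraries. LPS + IL-10 cells received 10 ng/mL recombinant IL-10 for 12 hours and then 50 ng/mL LPS for 4 hours in addition, LPS cells received the same LPS without IL-10, and unstimulated cells and cells with 10 ng/mL IL-10 alone, used for reference, were collected after the same 16 hours without LPS. All groups carried the Il10 deletion, and no library of an intact Il10 genotype was used here against which the deletion could be checked.

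LPS, a component of the bacterial cell wall, is sensed by Toll-like receptor 4 and activates NF-kappaB, AP-1 and, through type I interferon, IRF factors, which open enhancers and promoters of inflammatory genes. IL-10 is the main cytokine that restrains this response: its receptor, a pair of IL10RA and IL10RB chains, signals through JAK1 and TYK2 to STAT3, which drives genes such as Socs3 and Il4ra. ATAC-seq reads mark where a transposase could cut the DNA, and their number in a region (a peak) measures its accessibility.

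The 3 LPS libraries held 16862774 to 23095535 reads in peaks and the 3 LPS + IL-10 libraries 16907995 to 20754096. Replicate 1 of both groups was sequenced in lane 5 and replicates 2 and 3 in lane 6, so the lane was balanced in this comparison. Levels are given as TMM-normalized counts, that is, reads per peak after scaling the libraries to each other, and changes as log2 fold-changes from edgeR's quasi-likelihood test with their standard error (SE) and Benjamini-Hochberg adjusted p (FDR). Peaks were called differentially accessible regions (DARs) when the FDR was under 0.05 and the |log2 fold-change| exceeded 0.5. The cells' identity was checked at transcription start sites (TSS): 15 of 18 macrophage lineage genes had a peak over an annotated TSS (Csf1r, Cd68 and Csf2ra had none), with a median of 176 normalized counts per kb over the list, against 0 for 10 T cell markers, of which Cd3e, Cd3d, Cd3g, Cd4 and Cd8a had none, 20.7 for 8 B cell markers, 13.5 for 12 neutrophil and precursor markers, 27.0 for 9 dendritic cell markers and 25.8 for 9 stromal markers. Single markers of other cells were high all the same: Zbtb46 (520), S100a8 (284), Blnk (264), Camp (195), Batf3 (193) and Lck (117). The macrophage lineage genes Itgam (66.7), Runx1 (55.6) and Lyz1 (39.2) were below these, so the lists differ by their medians and not gene by gene. Accessibility in bulk cells cannot tell a change in the share of cells from a change within each cell.

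The windows of 200 bases below, from the mouse build mm9 and on its plus strand, come from the 3 peaks with the largest fall and the 3 with the largest rise, and are shown because the description of lowered and raised loci starts from them. Capitals mark matches to short consensus motifs on either strand, and each window is centred on the match nearest to the middle of its peak: a kappaB match (GGNNNTTCC) in the Csf1 and Tgfbi peaks, a STAT match (TTCNNNGAA) in the Il6 peak, an IRF match (GAAANNGAA) in the 1700025C18Rik peak, a PU.1 match (GAGGAAGT) in the Saal1 peak and a C/EBP match (TTGCNNAA) in the Lrig2 peak. The search also covered the AP-1 motif (TGANTCA). A match is a string of letters, not a measured binding site.
Csf1 downstream, chr3:107540035-107540234: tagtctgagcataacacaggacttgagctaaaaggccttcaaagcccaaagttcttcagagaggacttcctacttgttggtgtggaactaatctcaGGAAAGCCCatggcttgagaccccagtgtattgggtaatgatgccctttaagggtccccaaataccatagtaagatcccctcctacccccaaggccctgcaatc
Il6 downstream, chr5:30349794-30349993: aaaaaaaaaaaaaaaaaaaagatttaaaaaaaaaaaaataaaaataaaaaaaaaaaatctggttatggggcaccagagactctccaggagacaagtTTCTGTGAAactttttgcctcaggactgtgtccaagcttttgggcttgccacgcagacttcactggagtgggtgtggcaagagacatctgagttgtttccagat
1700025C18Rik intron, chr2:164909666-164909865: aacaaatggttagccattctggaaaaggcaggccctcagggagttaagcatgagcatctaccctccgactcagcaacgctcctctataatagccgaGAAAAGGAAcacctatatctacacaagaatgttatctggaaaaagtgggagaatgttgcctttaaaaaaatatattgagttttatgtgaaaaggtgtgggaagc
Saal1 intron, chr7:53963242-53963441: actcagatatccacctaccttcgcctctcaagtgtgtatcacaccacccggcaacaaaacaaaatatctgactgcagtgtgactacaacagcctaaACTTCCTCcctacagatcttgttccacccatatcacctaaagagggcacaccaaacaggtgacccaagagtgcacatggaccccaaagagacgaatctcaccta
Lrig2 far upstream, chr3:104360722-104360921: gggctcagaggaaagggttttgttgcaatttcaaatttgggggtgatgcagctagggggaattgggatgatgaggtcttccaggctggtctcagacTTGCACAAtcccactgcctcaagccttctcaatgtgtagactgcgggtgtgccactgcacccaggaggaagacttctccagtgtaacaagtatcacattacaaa
Tgfbi far downstream, chr13:56741417-56741616: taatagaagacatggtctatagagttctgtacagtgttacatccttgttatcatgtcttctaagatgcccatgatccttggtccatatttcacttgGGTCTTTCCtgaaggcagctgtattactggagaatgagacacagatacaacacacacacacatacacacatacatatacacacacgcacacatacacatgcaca

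IL-10 before LPS lowered and raised peaks in similar numbers. Of 157564 distal peaks tested, 7322 were lowered (4.65%) and 7160 raised (4.54%), and of 36666 promoter peaks 1446 were lowered (3.94%) and 1115 raised (3.04%). More lowered than raised peaks changed by over 1 on the log2 scale: 3995 of the distal and 417 of the promoter peaks fell by more than 1 on the log2 scale, whereas 2729 and 265 rose by more than 1. The split depended on how libraries were scaled: with libraries scaled by total counts, raised peaks were 60.7% of the distal and 59.6% of the promoter DARs in place of 49.4% and 43.5%, and with promoter peaks scaled among themselves they were 62.5% of the promoter DARs. Of 18524 protein-coding genes with a tested peak within 25 kb of a TSS, that window held at least 1 lowered and no raised DAR for 3429, at least 1 raised and no lowered DAR for 3473, both for 541 and none for 11081.

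**Figure D1:**
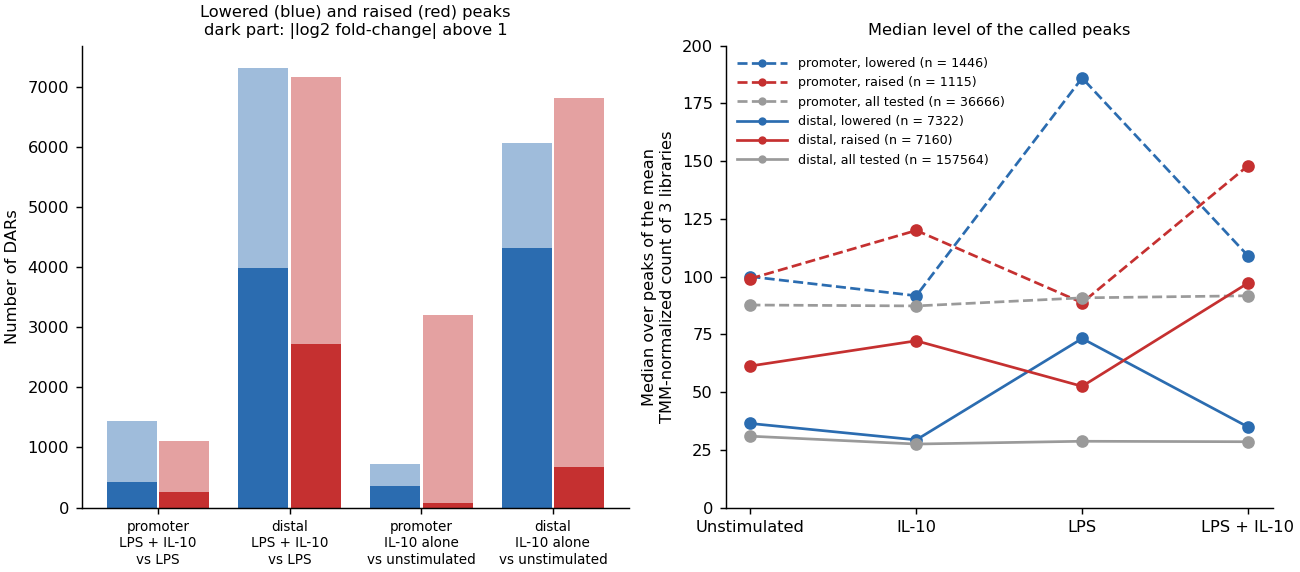
Left: number of DARs (bars, blue lowered, red raised, dark part with a |log2 fold-change| above 1) for LPS + IL-10 against LPS and for IL-10 alone against unstimulated cells, by class of peak. Right: median over peaks of the mean TMM-normalized count of 3 libraries in 4 conditions, for the peaks called in LPS + IL-10 against LPS and for all tested peaks (promoter dashed, distal solid); the lowered distal peaks stood at 73.2 with LPS and 34.9 with LPS + IL-10, and at 36.4 in unstimulated cells.

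The levels of the called peaks in the other conditions place both sets. The 7322 lowered distal peaks had a median of 36.4 normalized counts in unstimulated cells, 29.3 with IL-10 alone, 73.2 with LPS and 34.9 with LPS + IL-10. Their level with LPS + IL-10 was thus close to that of unstimulated cells, and the lowered promoter peaks followed the same course, with 100, 91.7, 186 and 109 counts. Raised distal peaks had medians of 61.3, 72.2, 52.5 and 97.2 in the same order, and raised promoter peaks of 99.1, 120, 88.7 and 148. The medians of raised peaks were thus highest with both agents. In unstimulated cells they were above those of all tested distal (30.9) and promoter peaks (87.7). Single raised peaks could differ, as the Lrig2 and C9 peaks below. The calls themselves fix the order of LPS and LPS + IL-10 in these medians, and only the levels of the other conditions are further information.

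The peak with the largest fall lay 13.1 kb downstream of the TSS of Csf1, which encodes macrophage colony-stimulating factor. It held 129, 121 and 108 normalized counts in the LPS libraries and 9.54, 12.0 and 14.7 in the LPS + IL-10 libraries. Every LPS + IL-10 library was below every LPS library, and the unstimulated mean was 28.6, so all 3 LPS + IL-10 libraries were also below the unstimulated mean (log2 fold-change -3.28 against LPS, SE 0.29, FDR = 2.4e-16). Another peak 9.7 kb downstream of the TSS of Il6, the acute phase cytokine, fell from 241, 169 and 177 to 16.2, 20.7 and 24.2 counts (log2 fold-change -3.25, SE 0.26, FDR = 7.2e-19). Its unstimulated mean was 21.8, which lay within the range of the LPS + IL-10 libraries.

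A peak in an intron of 1700025C18Rik, 21.4 kb from the TSS of Cd40, fell from 168, 94.8 and 117 counts to 22.9, 14.1 and 12.9 (log2 fold-change -2.92, SE 0.29, FDR = 1.1e-13). An intronic peak of Ckap2l, a mitotic spindle gene next to Il1a and 16.8 kb from its TSS, fell from 151, 120 and 87.5 counts to 17.2, 10.9 and 20.7 (log2 fold-change -2.85, SE 0.31, FDR = 2.1e-12). Both therefore lie beside genes of the inflammatory response, CD40 being the receptor for the T cell ligand CD154 and IL-1 alpha an alarm cytokine. The highest level among the 10 largest falls was that of a peak 9.2 kb from Cd69, a lectin-like activation antigen, with 675, 574 and 701 counts with LPS and 100, 92.5 and 78.5 with LPS + IL-10 (log2 fold-change -2.85, SE 0.16, FDR = 3.3e-28). Its unstimulated mean was 43.3 counts, so the LPS + IL-10 libraries stood between it and the LPS libraries.

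In Rasgef1b, an LPS-induced exchange factor for Ras proteins, an intronic peak held 280, 281 and 261 counts with LPS and 44.9, 44.6 and 26.8 with LPS + IL-10 (log2 fold-change -2.83, SE 0.21, FDR = 2.7e-21). The groups did not overlap in any of the 10 falls, which the choice of the largest falls favours. Peaks near Traf1, an adaptor of tumor necrosis factor receptors (-2.75, SE 0.28), in Kalrn (-2.92, SE 0.30), 47.7 kb upstream of Phip (-2.40, SE 0.21) and 38.7 kb upstream of Usp47, a deubiquitinase gene (-2.36, SE 0.24), completed the 10. Of these 10 peaks none was classed as promoter by the authors, 4 were intronic and 6 intergenic.

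**Figure D2:**
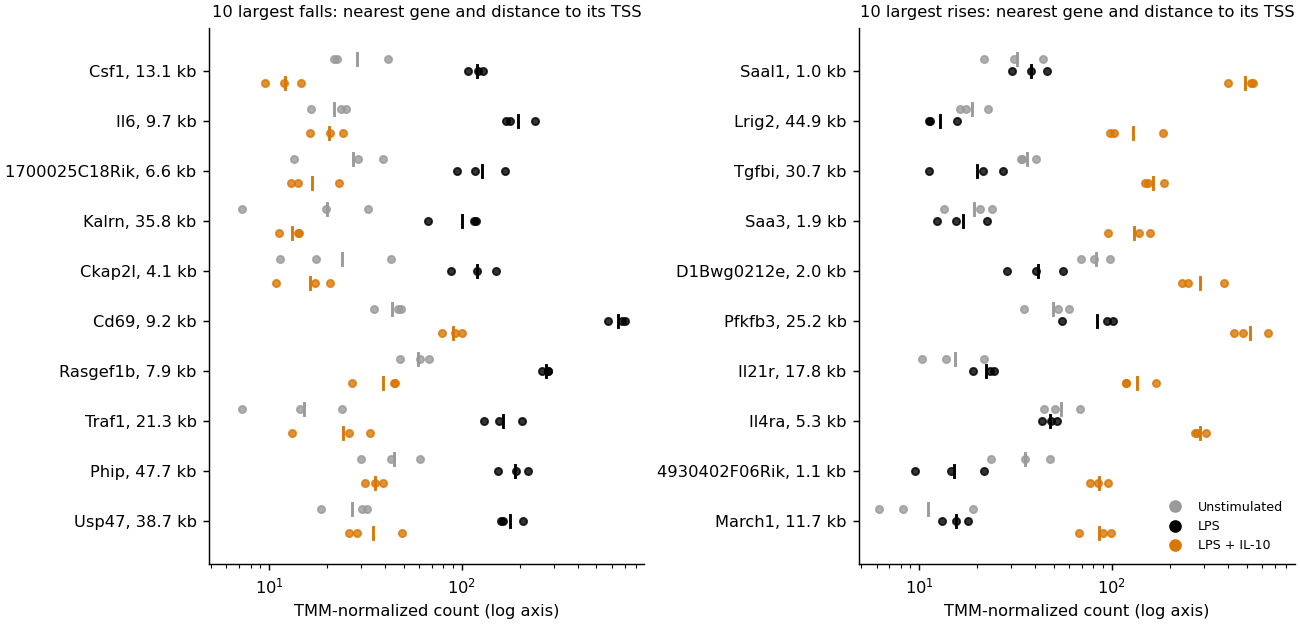
TMM-normalized counts (log axis) of the 10 largest falls (left) and the 10 largest rises (right) in each of 3 unstimulated (grey), 3 LPS (black) and 3 LPS + IL-10 libraries (orange); points are libraries and vertical ticks group means, and each peak is named by its nearest protein-coding gene and the distance to the TSS. LPS and LPS + IL-10 libraries do not overlap in any of the 20 peaks, which their choice by large changes favours.

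The largest rise was at the serum amyloid A cluster, which encodes acute phase proteins. A peak in an intron of Saal1, the gene beside Saa3, held 38, 46.0 and 30.3 counts with LPS and 543, 525 and 402 with LPS + IL-10 (log2 fold-change 3.67, SE 0.21, FDR = 6.2e-28). Its mean was 32.2 in unstimulated cells and 49.8 with IL-10 alone, so the high level was seen in the LPS + IL-10 libraries only, among these 4 conditions. A promoter-class peak in Saa3 itself rose from 15.5, 22.5 and 12.3 to 157, 95.8 and 139 counts (log2 fold-change 2.94, SE 0.27, FDR = 1e-15), also with low means in unstimulated cells (19.3) and with IL-10 alone (27.5).

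Peaks of Pfkfb3 had the same form. PFKFB3 makes the activator of phosphofructokinase and so sets the rate of glycolysis. A peak 25.2 kb from its TSS held 101, 93.8 and 55.0 counts with LPS, 650, 433 and 478 with LPS + IL-10, 49.2 on average in unstimulated cells and 50.2 with IL-10 alone (log2 fold-change 2.63, SE 0.17, FDR = 5.3e-24). Low levels in the other 3 of these 4 conditions were also seen at a peak 44.9 kb from Lrig2, a leucine-rich repeat membrane protein gene, with 11.2, 11.3 and 15.7 counts with LPS and 184, 98.0 and 102 with LPS + IL-10 (log2 fold-change 3.34, SE 0.30, FDR = 1.1e-15), and at a peak in March1, which encodes a ubiquitin ligase for MHC class II and CD86, with 15.5, 13.1 and 18 against 67.8, 90.3 and 98.4 counts (log2 fold-change 2.46, SE 0.32, FDR = 4.5e-09). The means with IL-10 alone were 15.7 for the Lrig2 peak and 11.7 for the March1 peak, against 18.9 and 11.1 in unstimulated cells.

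At peaks of 2 cytokine receptor genes, IL-10 raised accessibility without LPS as well. In an intron of Il4ra, the alpha chain of the IL-4 receptor, a peak held 51.8, 43.2 and 48.2 counts with LPS and 276, 308 and 271 with LPS + IL-10 (log2 fold-change 2.57, SE 0.18, FDR = 1.9e-22). IL-10 alone also raised it, from a mean of 54.2 to 175 counts (log2 fold-change 1.71, FDR = 9.1e-12). A peak between Il4ra and Il21r, the IL-21 receptor gene, rose from 23.3, 24.4 and 19.1 to 169, 119 and 119 counts (log2 fold-change 2.59, SE 0.25, FDR = 1.5e-14) and by 2.61 on the log2 scale with IL-10 alone (FDR = 5.7e-12). The IL-10 effects with and without LPS at this Il21r peak differed by -0.02 (FDR = 0.99 for the difference).

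A peak 30.7 kb from Tgfbi, a matrix protein induced by TGF-beta, rose from 11.2, 27.2 and 21.3 to 154, 186 and 148 counts (log2 fold-change 3.03, SE 0.24, FDR = 3.3e-19), with 36.1 in unstimulated cells and 108 with IL-10 alone. A peak in D1Bwg0212e, close to the ubiquitin ligase gene Rnf149, rose from 28.5, 55.4 and 40.4 to 381, 248 and 231 (log2 fold-change 2.79, SE 0.20, FDR = 3e-22). IL-10 alone also raised the D1Bwg0212e peak, from a mean of 82.5 to 158 (log2 fold-change 0.93, FDR = 0.00031), and the Tgfbi peak (log2 fold-change 1.58, FDR = 2.6e-07). The last of the 10 was in 4930402F06Rik, beside Ggta1, with 9.49, 21.6 and 14.6 against 84.9, 77.3 and 94.9 counts (log2 fold-change 2.50, SE 0.29, FDR = 3.1e-11). All 10 rises, like the 10 falls, had the same direction in the 3 same-numbered pairs, as the choice of these peaks required.

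Among promoter peaks, as classed by the authors, the largest fall was at Rasgef1b, with 1080, 1170 and 1010 counts with LPS and 193, 251 and 248 with LPS + IL-10 (log2 fold-change -2.24, SE 0.14, FDR = 1.3e-25). Tnfaip2, a TNF-induced gene, followed the same course, from 678, 723 and 567 to 216, 192 and 176 (log2 fold-change -1.76, SE 0.15, FDR = 1.8e-16). The promoter-class peak of Il15, the cytokine that maintains natural killer and memory T cells, fell from 336, 287 and 273 to 102, 77.3 and 85.4 (log2 fold-change -1.76, SE 0.17, FDR = 9.6e-15). The other promoter-class falls were near Serpina3g, a protease inhibitor gene (-2.12, SE 0.28), and 9630033F20Rik (-1.83, SE 0.24). Besides those of Saa3 and D1Bwg0212e, promoter-class rises were at Rnf149 (2.34, SE 0.29), upstream of C9, a gene of the complement pore (2.27, SE 0.15), and in Pfkfb3 (2.21, SE 0.19). The C9 peak held 123, 133 and 104 counts with LPS and 565, 620 and 567 with LPS + IL-10, and it was highest with IL-10 alone, at a mean of 819 (FDR = 7e-24 under LPS and 5.2e-10 without). Some of these peaks lie over 10 kb from any protein-coding TSS of the GENCODE annotation used here (Serpina3g, 9630033F20Rik, Il15 and Pfkfb3).

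At some loci many peaks of a window changed in 1 direction. The genes named here have the most DARs, a ranking that favours windows with many tested peaks. At Nfkb1, which encodes the p105/p50 NF-kappaB subunit, 36 of 43 tested peaks within 25 kb of a TSS were lowered and none was raised, with log2 fold-changes of -1.67 to -0.52 over the called ones. Its lead peak, 13.7 kb from the TSS, held 1170, 1100 and 1090 counts with LPS and 404, 331 and 321 with LPS + IL-10, and 282 on average in unstimulated cells (FDR = 5.2e-17). Tmcc3, a transmembrane coiled-coil gene, and St3gal3, a sialyltransferase gene, had 40 lowered peaks each, of 64 and 74. Slco3a1, an organic anion transporter gene, had 38 of 55 lowered, Alcam, the adhesion molecule CD166, 38 of 65, and Tbc1d1, a regulator of Rab proteins, 30 of 75 with 2 raised. The peak at the TSS of Tmcc3 itself fell from 402, 408 and 352 to 149, 135 and 122 counts (log2 fold-change -1.52, SE 0.16, FDR = 2.3e-13).

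Raised peaks also gathered at single loci. Itgam, which encodes the integrin chain CD11b and shares called peaks with its neighbour Itgax (CD11c), had 33 of 44 peaks raised and none lowered, by 0.50 to 3.04 on the log2 scale. The peak with the largest rise there held 5.18, 7.51 and 4.49 counts with LPS and 42.0, 49.0 and 53.5 with LPS + IL-10 (FDR = 5.1e-09). Fbxl5, an iron-sensing ubiquitin ligase gene whose window also holds Bst1 and Cd38, had 35 of 52 raised, Ppm1h, a phosphatase gene, 38 of 80, Ggta1, the gene of the enzyme that makes the alpha-gal sugar, 25 of 32, Wdfy3, an autophagy adaptor gene, 24 of 91, and Dab2, an endocytic adaptor gene that shares peaks with C9, 23 of 39. None of these 6 genes had a lowered peak. Over all protein-coding genes, 82 had at least 10 lowered and 75 at least 10 raised peaks, so these loci stand at the end of a long range, and neighbouring peaks share a locus and are not independent.

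Il6, Il12b, Tnf, Il10 and Socs3 were described whatever their values. At Il6, 8 of 13 peaks within 25 kb were lowered and none raised. The promoter peak fell from 805, 595 and 686 counts to 341, 303 and 307 (log2 fold-change -1.13, SE 0.14, FDR = 6.1e-10), and peaks 5.7, 9.7 and 14.0 kb downstream fell by 1.67, 3.25 and 2.51 on the log2 scale. The downstream peaks of Il6 thus had larger fold-changes than its promoter. The promoter peak was raised by IL-10 alone (log2 fold-change 0.58, FDR = 0.0055) and lowered under LPS, and the difference between these effects was -1.71 (FDR = 2.7e-09).

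At Il12b, the p40 subunit shared by IL-12 and IL-23, 10 of 18 peaks were lowered and none raised. The peak with the smallest FDR lay 17.4 kb upstream and fell from 116, 132 and 165 to 41.0, 49.0 and 38.8 counts (log2 fold-change -1.68, SE 0.21, FDR = 6.6e-10). A peak 9.8 kb upstream, which held 44.8 counts in unstimulated cells, had 596, 553 and 545 with LPS and 413, 307 and 323 with LPS + IL-10 (log2 fold-change -0.70, SE 0.14, FDR = 0.00017). At this Il12b peak the LPS + IL-10 libraries stood below the LPS libraries, yet far above the unstimulated mean. The Il12b promoter peak fell by 0.52 on the log2 scale (SE 0.14, FDR = 0.0095), from 329, 270 and 282 to 207, 176 and 230.

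Tnf, the tumor necrosis factor gene, changed less: 2 of 16 peaks were lowered and none raised, with a median log2 fold-change of -0.03 over the 16. A peak 0.8 kb from its TSS fell from 552, 569 and 606 to 313, 357 and 337 counts (log2 fold-change -0.78, SE 0.14, FDR = 1.8e-05), and one 4.5 kb downstream, nearest to Ltb, fell from 1670, 1970 and 2170 to 1360, 1180 and 1290 (log2 fold-change -0.60, SE 0.14, FDR = 0.001). Both stayed above the unstimulated means of 243 and 427. At Il10 itself, 1 of 20 peaks was lowered and 1 raised, with a median of -0.02. The raised one, 21.5 kb upstream of Il10, held 61.3, 46.9 and 68.4 counts with LPS and 104, 67.5 and 116 with LPS + IL-10, and these groups overlapped (FDR = 0.023).

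Socs3, the feedback inhibitor that STAT3 induces, had 13 of 27 peaks raised and none lowered. A peak 3.4 kb downstream of its TSS held 633, 588 and 613 counts with LPS and 1260, 1200 and 1100 with LPS + IL-10, against a mean of 125 in unstimulated cells and 510 with IL-10 alone (log2 fold-change 0.96, SE 0.14, FDR = 2e-07). The peak over the Socs3 TSS differed: it held 1440, 1220 and 1220 counts with LPS and 1190, 1120 and 910 with LPS + IL-10 (log2 fold-change -0.26, SE 0.13, FDR = 0.21), whereas IL-10 alone raised it from a mean of 324 to 1250 (log2 fold-change 1.95, FDR = 2.2e-20). With 1120, 1280 and 1350 counts, the libraries with IL-10 alone overlapped both the LPS and the LPS + IL-10 libraries at the Socs3 TSS.

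**Figure D3:**
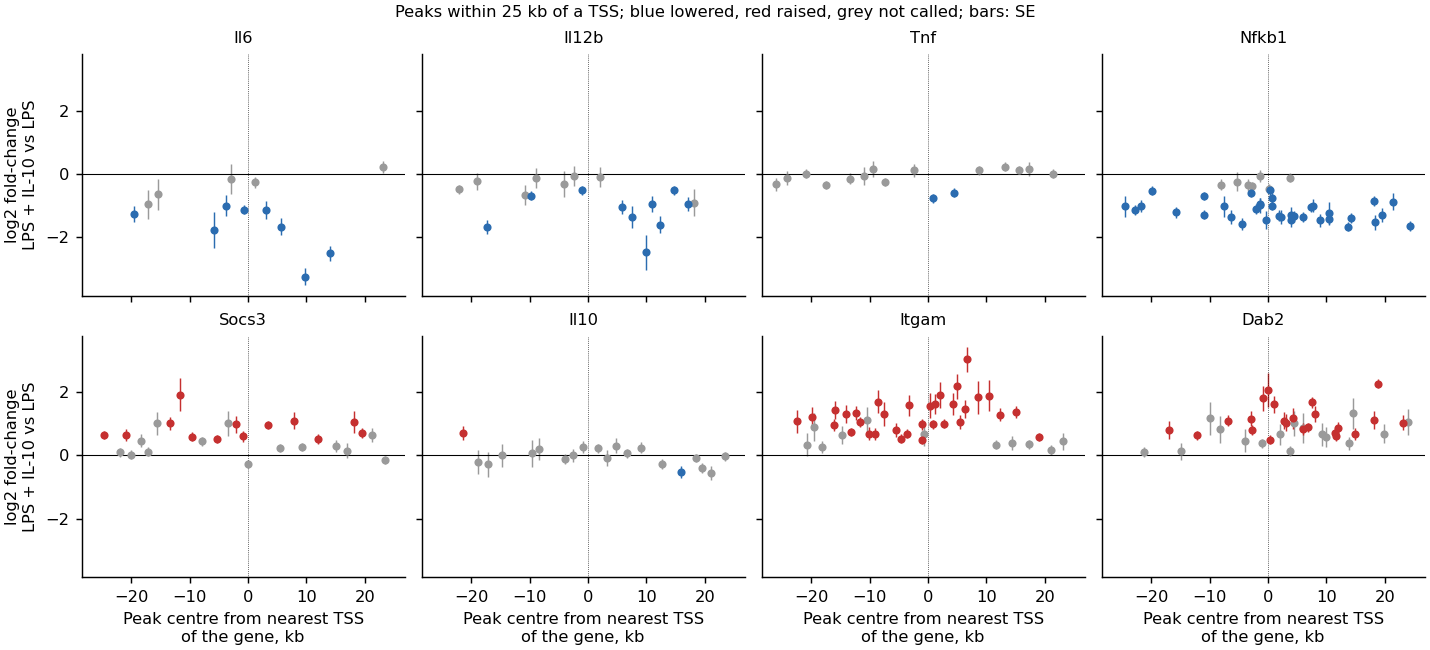
Log2 fold-change of LPS + IL-10 against LPS (points, with SE bars) of every tested peak within 25 kb of a TSS of 8 genes, by the distance of the peak's centre from the nearest TSS of that gene in kb (negative upstream). Blue peaks were lowered, red raised and grey not called; Nfkb1 had 36 lowered and Itgam 33 raised peaks.

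Gene functions were described with 22 lists of genes, each with every tested peak within 25 kb of a member's TSS. For reference, 4.51% of all 194230 tested peaks were lowered and 4.26% raised, with a median log2 fold-change of -0.01, and of the 133074 peaks within 25 kb of any protein-coding TSS 4.07% were lowered and 3.82% raised. Counts and medians are descriptions, since members were chosen with results of these data known and neighbouring peaks are not independent.

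Peaks near interferon-driven genes included the largest share of lowered peaks of the 22 lists. Near 15 immunity-related and guanylate-binding GTPases, which attack the vacuoles of intracellular microbes, 80 of 185 peaks (43.2%) were lowered and none was raised, with a median log2 fold-change of -0.60. Of the 15 genes, 14 had a lowered peak, led by Gbp7 (16 of 22), Gbp2 (13 of 20), Gbp3 (12 of 22) and Gbp5 (10 of 19), which lie in one cluster and share peaks. A peak 5.7 kb upstream of Gbp7 held 661, 526 and 537 counts with LPS, 274, 160 and 160 with LPS + IL-10 and 21.0 in unstimulated cells (log2 fold-change -1.54, SE 0.16, FDR = 9.2e-13). Near 28 type I interferon-stimulated genes, 118 of 449 peaks (26.3%) were lowered and 3 raised, and 23 genes had lowered peaks only.

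The interferon-stimulated list was led by Cmpk2 (20 of 24 lowered) and Rsad2 (18 of 23), neighbours whose products, a nucleotide kinase and viperin, block viral replication. The peak of both with the smallest FDR held 543, 499 and 518 counts with LPS, 191, 134 and 188 with LPS + IL-10 and 62.5 in unstimulated cells (log2 fold-change -1.60, SE 0.15, FDR = 1.9e-15). Ifih1, the RNA sensor MDA5, had 11 of 18 lowered, and Oasl1, which represses translation of Irf7, 10 of 27. Interferon regulatory factor genes had 23 of 127 peaks lowered (18.1%) and 1 raised, with Irf1 first (10 of 19), then Irf7 (5 of 14), Irf5 (3 of 16) and Irf8 (2 of 21, and 1 raised). A peak 7.7 kb from the TSS of Irf1 held 2270, 2270 and 2420 counts with LPS and 1010, 883 and 839 with LPS + IL-10 (log2 fold-change -1.35, SE 0.13, FDR = 3.5e-14). IL-10 alone raised this Irf1 peak from 395 to 572 (log2 fold-change 0.53, FDR = 0.0058). That value is near the threshold of 0.5 and subject to the limit of scaling without LPS given below.

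Inflammatory cytokine genes had 87 of 327 peaks lowered (26.6%) and 6 raised, with a median of -0.27. Of 24 genes, 17 had lowered peaks only and 3 raised peaks only, and 4 had none. Il1a had 13 of 21 lowered, Csf1 11 of 28, and Il18 and Il12b 10 each, of 17 and 18. At Il18, whose product is activated by the inflammasome, a peak 10.8 kb from the TSS fell from 367, 311 and 306 to 136, 115 and 123 counts (log2 fold-change -1.39, SE 0.17, FDR = 1.2e-10). The genes with raised peaks only were Il1f9 (2 of 4), Tnfsf9 (2 of 19) and Il19 (2 of 6), and those without a DAR were Csf2, Csf3, Osm and Ebi3, which are named here after their values were seen.

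Chemokine genes split into lowered and raised members. Over 19 genes found, 33 of 218 peaks were lowered (15.1%) and 19 raised (8.72%), with a median of -0.03, which was up to 0.03 under other scalings. The T cell attractants Cxcl10 (12 of 19 lowered) and Cxcl9 (9 of 21, and 1 raised) and the CCR4 ligand Ccl22 (8 of 8) were lowered, while Ccl6, a monocyte attractant, had 8 of 23 raised. A peak at Cxcl10 held 258, 211 and 278 counts with LPS, 84.0, 45.7 and 64.7 with LPS + IL-10 and 12.1 in unstimulated cells (log2 fold-change -1.93, SE 0.19, FDR = 6.6e-14). A peak 24.6 kb upstream of Ccl6 held 260, 227 and 221 against 406, 372 and 464 (log2 fold-change 0.81, SE 0.14, FDR = 1e-05).

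Genes of MHC class II and costimulation had 50 of 242 peaks lowered (20.7%) and none raised. These were mostly peaks of costimulatory and adhesion genes: Cd40 had 15 of 26 lowered, Cd86, the ligand of CD28, 13 of 39, Icam1, an integrin ligand, 10 of 21, and Icosl 5 of 23, whereas H2-Aa, H2-Ab1 and H2-Eb1 had 1 each and Cd74 none (the last 4 named after their values were seen). An Icam1 peak 11.6 kb from the TSS fell from 433, 397 and 438 to 156, 165 and 148 counts (log2 fold-change -1.43, SE 0.15, FDR = 2.2e-12). Near Cd40, a peak 14.7 kb from its TSS held 497, 392 and 439 counts with LPS, 84.9, 56.6 and 72.5 with LPS + IL-10 and 23.9 in unstimulated cells (log2 fold-change -2.63, SE 0.18, FDR = 6.5e-23). A promoter-class peak of Cd86 fell from 398, 292 and 286 to 134, 119 and 129 (log2 fold-change -1.36, SE 0.16, FDR = 3.6e-11).

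**Figure D4:**
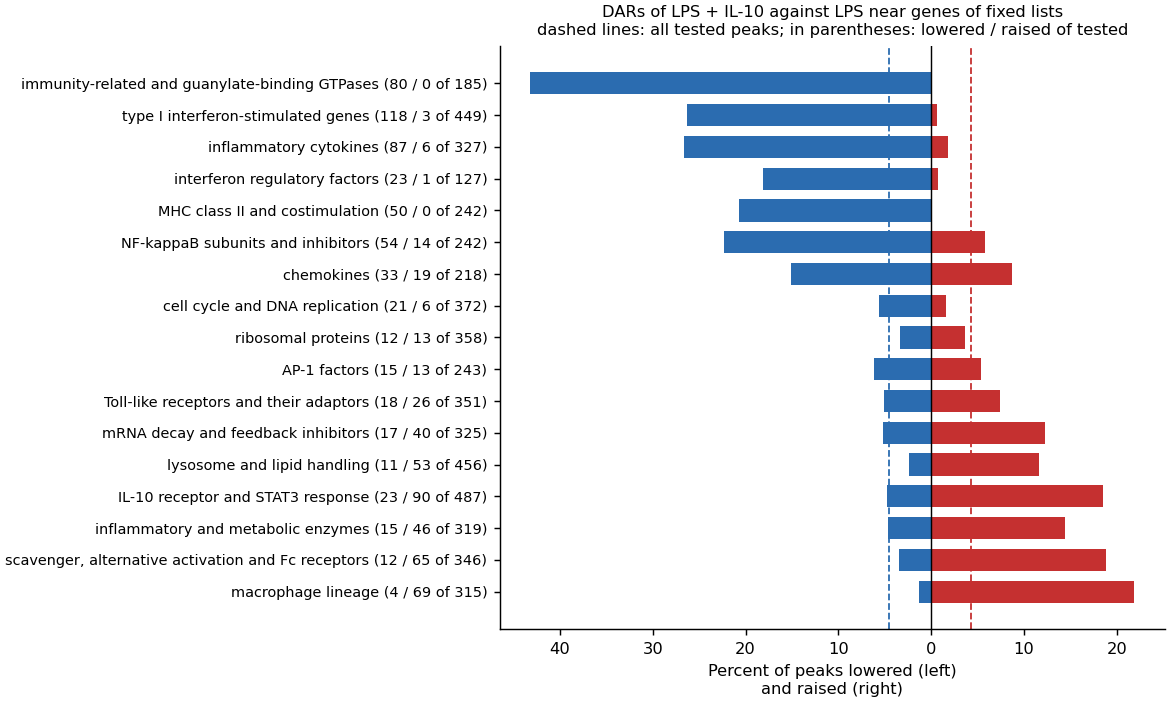
Percent of the tested peaks within 25 kb of a TSS that were lowered (left, blue) or raised (right, red) by LPS + IL-10 against LPS, for 17 gene lists in order of their median log2 fold-change, with the numbers lowered and raised of those tested. Dashed lines give the percent of all tested peaks, 4.51% lowered and 4.26% raised; the GTPases reached 43.2% lowered and the macrophage lineage genes 21.9% raised.

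NF-kappaB subunits and inhibitors had 54 of 242 peaks lowered (22.3%) and 14 raised (5.79%), and 36 of the 54 were those of Nfkb1. Nfkbiz (6 of 19) and Rel (5 of 18) were lowered too, the former a nuclear cofactor for Il6 and the latter a subunit that binds Il12b. A peak 22.9 kb from the TSS of Rel fell from 522, 742 and 640 to 301, 281 and 272 counts (log2 fold-change -1.16, SE 0.14, FDR = 2.5e-10). Tnip1, which restrains NF-kappaB together with A20, had 6 of 24 raised. AP-1 factor genes were near the background as a whole, with 15 of 243 lowered (6.17%) and 13 raised (5.35%), but Atf3 had 8 of 20 and Mafk 3 of 12 lowered, and Fosl2 had 9 of 23 and Fos 3 of 20 raised. The Fosl2 lead peak rose from 105, 142 and 125 to 429, 387 and 362 counts (log2 fold-change 1.67, SE 0.15, FDR = 3.9e-16), and that of Atf3 fell from 250, 197 and 255 to 104, 81.6 and 85.4 (log2 fold-change -1.37, SE 0.17, FDR = 9.2e-10).

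Toll-like receptors and their adaptors had 18 of 351 lowered (5.13%) and 26 raised (7.41%). The 2 IRAK kinase genes with the most DARs moved apart, Irak3, whose product halts receptor signaling, with 14 of 39 raised and Irak2, which sustains it, with 7 of 30 lowered. The lead peak of Irak3 held 11.2, 15.0 and 15.7 counts with LPS and 47.7, 45.7 and 44.9 with LPS + IL-10 (log2 fold-change 1.72, SE 0.34, FDR = 0.00013), and that of Irak2 553, 601 and 534 against 313, 281 and 404 (log2 fold-change -0.76, SE 0.14, FDR = 1.5e-05). Tlr4 had 2 peaks raised and 1 lowered of 12, and Ly96, its co-receptor MD-2, 3 of 16 lowered.

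Peaks near the IL-10 receptor and STAT3 response genes were raised more often than all tested peaks (4.26%). Of 487 peaks, 90 were raised (18.5%) and 23 lowered (4.72%), with a median of 0.19, and 20 of the 26 genes had raised peaks only. After Socs3, the most were at Il4ra (11 of 17), Il21r (9 of 16) and Il10rb, a chain of the IL-10 receptor (9 of 17). A peak between Il4ra and Il21r held 263, 253 and 273 counts with LPS, 1310, 1170 and 890 with LPS + IL-10, 165 in unstimulated cells and 1060 with IL-10 alone (log2 fold-change 2.10, SE 0.14, FDR = 5e-23). The promoter-class lead peak of Il10rb rose from 202, 188 and 203 to 428, 331 and 388 (log2 fold-change 0.96, SE 0.14, FDR = 1.9e-07). The 4 genes with lowered peaks only were the inhibitors Cish (8 of 28) and Socs1 (3 of 14), the kinase gene Tyk2 (7 of 17) and Il10ra (4 of 18), which are named here after their values were seen.

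Genes of mRNA decay and feedback inhibition had 40 of 325 raised (12.3%) and 17 lowered (5.23%). Of the 40 raised peaks 13 were those of Socs3, and of the 17 lowered 8 were those of Cish. The genes of the dual-specificity phosphatases, which switch off MAP kinases, differed: Dusp16 had 11 of 42 peaks raised and Dusp1 7 of 17, while Dusp10 had 3 of 13 lowered, Dusp2 1 of 19 lowered and Dusp6 1 of 15 raised, and Dusp4 and Dusp5 had no DAR (the last 5 named after their values were seen). A peak 7.7 kb downstream of Dusp1 held 92.3, 99.5 and 110 counts with LPS and 340, 280 and 350 with LPS + IL-10 (log2 fold-change 1.69, SE 0.17, FDR = 1.2e-13). The Dusp16 lead peak rose from 99.3, 119 and 85.3 to 227, 164 and 189 (log2 fold-change 0.93, SE 0.17, FDR = 2.5e-05). Without LPS, the Dusp1 peak was not called (mean 165 in unstimulated cells and 160 with IL-10 alone, log2 fold-change -0.06, FDR = 0.88).

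Scavenger, alternative activation and Fc receptor genes had 65 of 346 peaks raised (18.8%) and 12 lowered (3.47%). Fcgr2b, the inhibitory Fc receptor, had 16 of 26 raised, Stab1, a scavenger receptor, 14 of 21, and Msr1, the class A scavenger receptor, 12 of 23, while Axl, a receptor for apoptotic cells, had 8 of 21 lowered. The Msr1 lead peak rose from 86.3, 94.8 and 90.9 to 209, 236 and 182 counts (log2 fold-change 1.20, SE 0.18, FDR = 1.7e-07). The lead peak of Fcgr2b held 282, 285 and 203 counts with LPS, 809, 715 and 678 with LPS + IL-10, 82.1 in unstimulated cells and 252 with IL-10 alone (log2 fold-change 1.51, SE 0.14, FDR = 2.2e-15). At Stab1 the lead peak held 289, 289 and 274 with LPS and 574, 563 and 675 with LPS + IL-10, below the 769 of unstimulated cells (log2 fold-change 1.09, SE 0.14, FDR = 6.4e-10).

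Lysosome and lipid handling genes had 53 of 456 raised (11.6%) and 11 lowered (2.41%). Abca1, the cholesterol efflux pump, had 11 of 25 raised, Plin2, which coats lipid droplets, 8 of 18, and the protease gene Ctsb 5 of 16, while Lpl, lipoprotein lipase, had 5 of 7 lowered. The Abca1 lead peak rose from 67.3, 78.8 and 69.6 to 229, 276 and 140 counts (log2 fold-change 1.57, SE 0.18, FDR = 2.8e-11). Inflammatory and metabolic enzyme genes had 46 of 319 raised (14.4%) and 15 lowered (4.70%), of which 17 raised peaks were those of Pfkfb3. Ptges, prostaglandin E synthase, had 7 of 35 raised, Slc7a2, an arginine transporter, 7 of 26 lowered, and Hif1a 4 raised and 1 lowered of 37, and that lowered peak, 24.7 kb upstream, had the smallest FDR at Hif1a, with 114, 133 and 178 counts against 38.2, 31.6 and 45.7 (log2 fold-change -1.86, SE 0.22, FDR = 1.1e-10).

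Genes of the macrophage lineage, taken as a control list, had 69 of 315 peaks raised (21.9%) and 4 lowered (1.27%), and 33 of the 69 were those of Itgam. Cebpb, a transcription factor gene, Csf2rb, a chain of the GM-CSF receptor, and Csf1r, the receptor for macrophage colony-stimulating factor, had 5 raised peaks each, of 15, 14 and 17. A peak 6.6 kb from Cebpb rose from 306, 388 and 394 to 1020, 946 and 860 counts (log2 fold-change 1.38, SE 0.14, FDR = 4.8e-14).

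Ribosomal protein genes, another control list, stood near the background, with 12 of 358 peaks lowered (3.35%) and 13 raised (3.63%). Of those 13, 7 were at Rps9, beside Lilrb3, where the lead peak rose from 514, 506 and 603 to 1180, 1050 and 1010 counts (log2 fold-change 1.00, SE 0.13, FDR = 6.1e-09). Cell cycle and DNA replication genes had 21 of 372 lowered (5.65%) and 6 raised (1.61%), of which 5 lowered peaks were at Ccne1 and 12 at Ccnd2, the gene of cyclin D2, where the lead peak fell from 95.8, 55.4 and 97.6 to 23.9, 28.3 and 25.0 (log2 fold-change -1.69, SE 0.27, FDR = 9.8e-07). Among markers of other cells, 1 of 75 T cell peaks was lowered and 1 raised, 9 of 89 B cell peaks lowered (10.1%) and 2 raised, 3 of 111 neutrophil peaks lowered and 4 raised, 3 of 108 dendritic cell peaks lowered and 10 raised (9.26%), all 10 at Itgax, and 2 of 43 stromal peaks lowered. Summed counts of peaks over the TSS of neutrophil and precursor markers were 1060 to 1220 with LPS and 1340 to 1550 with LPS + IL-10, those of dendritic cell markers 1390 to 1510 and 1300 to 1530, of B cell markers 774 to 819 and 650 to 717, of T cell markers 485 to 583 and 413 to 500, of stromal markers 1270 to 1460 and 1130 to 1260, and of macrophage lineage genes 9200 to 9720 and 8340 to 9610. For the ribosomal protein control genes these sums were 16600 to 18300 with LPS and 14700 to 16500 with LPS + IL-10. The control list thus fell without overlap as well. The part of other cells in these results was not tested.

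The lists also differed in their levels across conditions. Over the 185 GTPase peaks the median was 29.4 normalized counts before stimulation, 79.3 after LPS and 53.8 when IL-10 came first, and over the 449 peaks of interferon-stimulated genes it was 39.3, 109 and 79.0. Cytokine peaks had medians of 39.8, 71.1 and 52.7. These lowered lists thus kept a median above that of unstimulated cells when IL-10 preceded LPS. Scavenger and Fc receptor peaks stood at 38.4, 38.2 and 46.2, and those of the IL-10 receptor and STAT3 list at 60.4, 73.7 and 86.7. Without LPS, IL-10 raised 85 and lowered 9 of the 487 IL-10 receptor and STAT3 peaks, raised 30 and lowered 12 of the 327 cytokine peaks and raised 22 and lowered 9 of the 242 peaks of MHC class II and costimulation genes, against 5.16% raised and 3.5% lowered of all tested peaks. Of promoter peaks alone, IL-10 without LPS raised 8.72% and lowered 1.97%. All these numbers without LPS depend on the scaling of libraries, as given below. The IL-10 effect was lower under LPS than without in 79 cytokine peaks and higher in 3, and lower in 53 peaks and higher in none of the MHC class II and costimulation list, against 5.90% lower and 2.01% higher of all tested peaks. It was lower in 6211 and higher in 513 of 36666 promoter peaks. Ribosomal protein peaks (29 lower, 3 higher of 358) and IL-10 receptor and STAT3 peaks (55 and 18) leaned the same way. Scavenger and Fc receptor (17 and 28), metabolic enzyme (20 and 26) and lysosome and lipid peaks (21 and 23) leaned the other way.

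Sequence content differed between lowered and raised distal peaks. In the middle 500 bp, 25.2% of lowered, 16.6% of raised and 16.8% of all tested distal peaks held the IRF motif, and 27.6%, 20.8% and 22.7% the kappaB motif. C/EBP matches had the opposite order, with 19.5% of lowered, 28.9% of raised and 20.5% of all distal peaks, and PU.1 matches were in 5.83%, 7.67% and 6.98%. STAT matches (16.4%, 16.3% and 14.7%) and AP-1 matches (21.0%, 20.7% and 19.3%) differed little between lowered and raised peaks. Read the other way, 6.94% of distal peaks with an IRF match were lowered against 4.18% without, and 6.41% of those with a C/EBP match were raised against 4.06% without. The E-box (CACGTG) was in 6.38%, 6.40% and 6.76% and a CTCF core (AGNNGGCGC) in 1.94%, 1.52% and 2.86%. GC content of the middle 500 bp was alike in lowered (median 45%), raised (44.8%) and all distal peaks (46.2%), but called peaks were wider (medians 1162.5, 1350 and 906 bp) and held more counts (54.5, 75.2 and 28.6). A string of this length also occurs by the base composition alone, and no binding was measured.

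**Figure D5:**
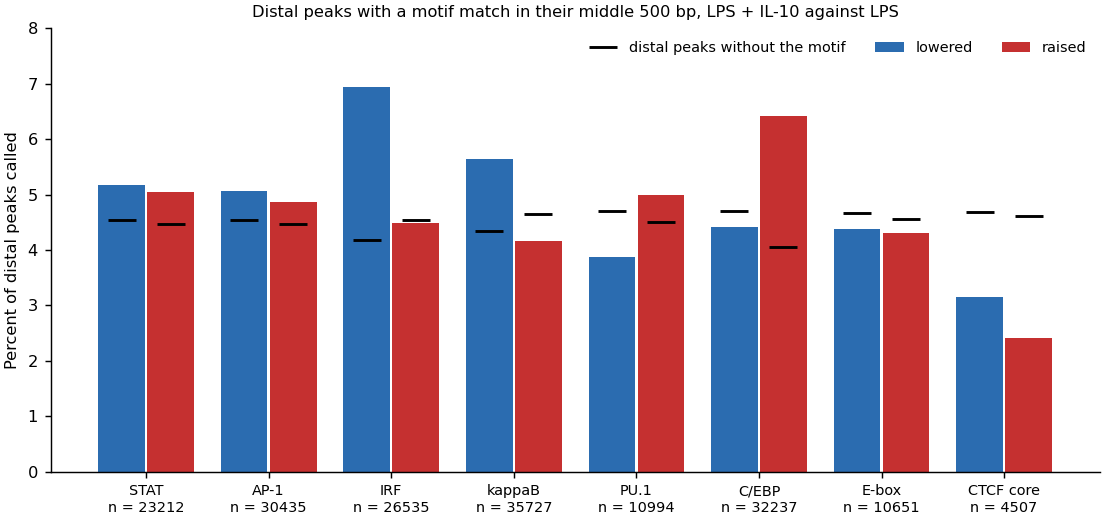
Percent of distal peaks that were lowered (blue bars) or raised (red bars) by LPS + IL-10 against LPS among peaks with a match to each motif in their middle 500 bp, with black ticks for distal peaks without it. IRF stands highest among lowered peaks (6.94% against 4.18% without) and C/EBP among raised peaks (6.41% against 4.06% without).

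Among promoter peaks the IRF motif was in 20.6% of lowered, 15.8% of raised and 13.8% of all, so that raised peaks stood above all promoter peaks, and the C/EBP motif in 16.3%, 24.6% and 16.3%. AP-1 matches were in 13.8% of lowered, 17% of raised and 12.7% of all promoter peaks, and the CTCF core in 7.75%, 1.61% and 8.28%. Promoter peaks also differed in base composition. Median GC content was 49.4% in lowered, 46.8% in raised and 50.4% in all, with 7, 5 and 8 CpG per 500 bp. The part of composition in these motif shares was not tested. By position, 51.4% of lowered and 53.2% of raised distal peaks had their centre in an intron and 43.1% and 42.9% between genes, as did 53.7% and 41.0% of all tested distal peaks. Their median distance to a protein-coding TSS was 20.5 kb for lowered and 19.7 kb for raised distal peaks against 15.8 kb for all. By these medians, lowered and raised distal peaks lay farther from a protein-coding TSS than distal peaks in general.

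IL-10 alone against unstimulated cells, a comparison that shares no library with the one above, lowered 6793 peaks (3.5% of those tested) and raised 10021 (5.16%). Of the peaks raised by IL-10 under LPS, 19.4% of the distal and 20.4% of the promoter ones were also raised by IL-10 alone, against 4.33% and 8.72% of all distal and promoter peaks tested. These shared peaks made up 20.4% of the distal and 7.10% of the promoter peaks raised by IL-10 alone. For lowered peaks the shares were 8.55% of the distal and 6.64% of the promoter ones, against 3.85% and 1.97% of all, and they made up 10.3% and 13.3% of the peaks lowered by IL-10 alone. Of the lowered promoter peaks, 160 were raised by IL-10 alone (11.1%, against 8.72% of all promoter peaks) and 96 lowered (6.64%, against 1.97%). Of the lowered distal peaks, 186 were raised by IL-10 alone (2.54%, against 4.33% of all distal peaks) and 626 lowered (8.55%, against 3.85%). The medians over the same peaks were -1.06 under LPS and -0.26 without for the lowered distal ones, and 0.88 and 0.23 for the raised. Most peaks that IL-10 changed under LPS were thus not called for IL-10 alone.

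The difference between the effects of IL-10 with and without LPS was tested as an interaction. It passed the test below 0 in 11454 peaks (5.90%) and above 0 in 3907 (2.01%). Promoter peaks made up more of the former, with 6211 below and 513 above 0, against 5243 and 3394 distal peaks, and past 1 on the log2 scale 2046 distal peaks were below and 2724 above 0. Of the 10 largest falls 9 were below 0, all but the Ckap2l peak (-1.37, FDR = 0.10), and of the 10 largest rises 9 were above 0, all but the Il21r peak, but these peaks were chosen by the IL-10 effect under LPS that enters the difference, so their signs are a description. The numbers depended on the scaling, and unstimulated libraries had TMM factors of 1.04 to 1.24 against 0.94 to 1.05 in the LPS and LPS + IL-10 libraries. Scaled by total counts, 5152 were below and 12207 above 0, and the median difference over all peaks moved from 0.038 to 0.311. For IL-10 alone the same scaling gave 16658 lowered and 2464 raised peaks, so the numbers without LPS carry this limit, and the median over all peaks for IL-10 alone moved from -0.049 to -0.257.

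Set beside (+)-JQ1, a BET bromodomain inhibitor given at 500 nM before LPS, 6654 peaks were lower with LPS + IL-10 (3.43%) and 9092 higher (4.68%) than with LPS + (+)-JQ1, in a direct contrast of the treated groups. The classes of peak differed in direction, with 1822 promoter peaks lower and 1208 higher but 4832 distal peaks lower and 7884 higher. Without LPS + IL-10 replicate 1, the numbers over both classes were 6782 lower and 6644 higher. At the Cd69 peak the means were 90.4 with LPS + IL-10 and 353 with LPS + (+)-JQ1 (difference -1.95 on the log2 scale, FDR = 6.2e-18), and at the Saal1 peak 490 and 31.7 (difference 4.03, FDR = 1.3e-29). At the Il6 peak they were 20.4 and 30.9 (-0.62, FDR = 0.21). These peaks were named for their large changes with LPS + IL-10 against LPS. The same LPS + IL-10 libraries enter this contrast, so their differences are a description.

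A measure that needs no scaling between libraries was the log2 ratio of distal to promoter counts. It was 0.17, 0.27 and 0.28 in the LPS libraries and 0.36, 0.38 and 0.44 in the LPS + IL-10 libraries. LPS + IL-10 libraries were higher in all 3 same-numbered pairs and in both lanes, by 0.156 ± 0.07 (SD of the difference, n = 3 against 3), and the groups did not overlap (exact permutation test, two-sided, p = 0.1, which is the lowest value possible with 3 against 3). The ratio was 0.406 ± 0.138 in unstimulated cells and 0.205 ± 0.015 with IL-10 alone, lower in each of the 3 libraries than in any unstimulated one (SD, n = 3 each, two-sided exact permutation test, p = 0.1).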

How the data were processed

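ATAC-seq was performed by the authors on 18 libraries of Il10-/- BMDMs (6 groups of 3). Per the methods and labels, the authors aligned reads to mm9 with Bowtie2 through PEPATAC, called peaks per library with MACS2, merged them into a union of 194284 peaks, classed these as promoter or distal with ChIPseeker, and deposited raw read counts per peak and library. In the union table, 6 columns matched no sample and were not used.

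Counts were fitted with edgeR 4.0.16 (R 4.3.3) by the quasi-likelihood test with TMM scaling, filterByExpr (194230 peaks kept), all 18 libraries and no block, with Benjamini-Hochberg adjustment over all peaks tested. DESeq2 1.42.0 and limma 3.58.1 (loess offsets) served alternatives, as did other scalings, filters, thresholds and covariates, leaving out each replicate, and other windows. The study used DESeq2. In simulated counts for this comparison, edgeR recovered 189 of 200 peaks changed by 1.5 on the log2 scale (94.5%). It called 8 unchanged ones among 192089 tested. The changed peaks were drawn only from those above a minimum mean LPS count, and all groups otherwise had the LPS mean. These rates therefore do not cover weaker peaks, smaller changes or data in which as many peaks change as were called here. Genes came from GENCODE vM1 and sequences from the mm9 genome. Depth over the 6 libraries was 16862774 to 23095535 reads in peaks.

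The labels number the 3 libraries of each group and name 3 mice, but do not state that a number marks a mouse. Named were the 10 largest falls and rises among DARs with at least 50 mean counts and 1 direction in 3 pairs (1 per gene), the 5 largest of each among promoter peaks, the 6 genes with most DARs of each direction, up to 4 members per list by number of DARs, and Il12b, Tnf, Il6, Socs3 and Il10. The comparison, its members and the lists were chosen with earlier results of these data known. A result that the naming rule for lists would include is not reported here.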

Additional observations from a re-analysis of the deposited data

Results flagged for a closer look

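The effect of IL-10 under LPS differed from its effect without LPS by edgeR's quasi-likelihood test of the interaction. It was lower in 11454 peaks (5.9% of those tested) and higher in 3907 (2.01%). Of the 121 peaks named or described whatever their values, 49 differed. The peaks of the largest falls and rises were chosen by the IL-10 effect under LPS, which enters the difference, so their values are a description. The values below are log2 differences between the effects, negative where IL-10 lowered accessibility more, or raised it less, under LPS.

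Among the largest falls the difference was -2.53 at Csf1, -2.45 at the Il6 peak 9.7 kb downstream, -2.45 at Kalrn, -2.19 at Traf1, -2.18 at Cd69, -2.16 at the intronic and -1.62 at the promoter-class peak of Rasgef1b, -2.02 at 1700025C18Rik, -1.96 at Usp47 and -1.61 at Phip. Among promoter-class falls it was -1.71 at Serpina3g, -1.52 at Tnfaip2, -1.37 at 9630033F20Rik and -1.12 at Il15.

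Among rises the difference was largest at Lrig2, at 3.60, followed by Saal1 with 3.01, Pfkfb3 with 2.59 (2.27 at its promoter-class peak), Saa3 with 2.42 and March1 with 2.33. It was 1.98 at 4930402F06Rik, 1.87 at D1Bwg0212e, 1.69 at Rnf149, 1.45 at Tgfbi, 1.12 at C9 and 0.87 at Il4ra.

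Around Il12b, 9 peaks differed, with values of -0.96, -1.52, -1.23 and -0.97 from 22.1 kb upstream to the promoter and of -1.25, -2.61, -1.96, -1.59 and -1.41 downstream. Around Il6 the other values were -1.24, -1.71, -1.41 and -1.49. Around Tnf they were -0.92 at Tnf itself, -0.72 nearest to Ltb, -0.75 nearest to Lta and -0.65 nearest to Gm16181. Around Socs3 they were -2.21 at the TSS, -1.07, -1.33, -0.83 and -1.23 downstream of it and -0.87 nearest to Pgs1. These differences depend on the scaling between LPS-treated and other libraries, as given for the numbers of peaks.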

How the results depend on the processing

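No named peak that was called changed direction under the alternatives run, but some that were not called did (for example at Il12b and Il10, mostly on leaving out a replicate), as did the larger side of several counts. Promoter peaks, 1446 lowered and 1115 raised, were 998 and 1472 with total counts and 985 and 1641 scaled among themselves, and the counts for IL-10 alone and the interaction below turned with total counts, that for the interaction also with loess offsets and that for IL-10 alone also with at least 10 counts. Distal peaks, near even, turned under several settings. List medians near 0 changed sign between scalings (chemokines -0.03 to 0.03, cell cycle -0.01 to 0.05, T cell markers -0.04 to 0.04, dendritic cell markers -0.01 to 0.05). Of 121 named peaks, 62 were called, and of the 2030 values of the 121 under alternatives 1931 kept their side of the threshold, 80 lost and 19 gained a call. Same-numbered LPS and LPS + IL-10 libraries' deviations from their group means correlated by 0.026, 0.007 and 0.013, the highest value for each of the 6 libraries, which is a hint from the data and not the design. With the replicate block (pairing by number), 7301 distal and 1459 promoter peaks were lowered and 7179 and 1118 raised, and the distal to promoter ratio differed by 0.156. The block moved no other number of calls by over 1.5 times. Testing against a minimum change (glmTreat) left 235 promoter peaks lowered and 173 raised, and 1788 and 1347 distal ones. At an FDR under 0.01, 705 promoter peaks were raised, 4287 distal peaks lowered and 4280 raised, 1762 lowered by IL-10 alone, 6277 lower and 1273 higher for the interaction, and 4131 lower and 5554 higher than with LPS + (+)-JQ1. Total-count scaling gave 16658 lowered and 2464 raised for IL-10 alone, 5152 and 12207 for the interaction, and 4316 lower than with LPS + (+)-JQ1. Loess offsets gave 2856 and 2956 for IL-10 alone and 3907 lower and 4133 higher for the interaction, and peaks with at least 10 counts in every library 6059 lowered and 4977 raised by IL-10 alone. Raised peaks were 57.7% of the calls against LPS + (+)-JQ1 and 72.7% with total counts. Leaving out 1 replicate gave 2588 (without LPS replicate 1) to 3341 peaks higher for the interaction and 4196 (without LPS + IL-10 replicate 3) to 6782 lower than with LPS + (+)-JQ1 (the highest without LPS + IL-10 replicate 1, with 6644 higher). Within 10 kb of a TSS, 22.7% of chemokine peaks were lowered, and 22.6% of IL-10 receptor and STAT3 and 5.0% of dendritic cell marker peaks raised, and DESeq2 called 0% of T cell marker peaks raised. The ratio of lowered to raised distal shares was 1.82 in the middle 200 bp and 1.19 in whole peaks for IRF, 1.52 and 1.09 for kappaB, 0.551 and 0.755 for C/EBP, and in whole peaks 0.920 for STAT and 0.928 for AP-1, against 1.01 and 1.02 in the middle 500 bp. Apart from fewer peaks or libraries where a setting removes them, the cause was not tested. Depth limits weak peaks, and 3 mice limit the exact tests.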
